A study of Mus musculus with 2 samples.

Results

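The transcripts described here are those of the mouse 14-3-3 proteins, a family of small acidic adaptor proteins encoded by 7 genes, Ywhab, Ywhae, Ywhag, Ywhah, Ywhaq, Ywhaz and Sfn. The members were the non-control probes that carry one of these gene names on the array, 15 of 41174 probes. By name they are 7 of 27745 genes or transcripts. The family was selected on the KO over WT ratios of its genes in these same arrays, so the difference between the genotypes is given as a description with no test. Expression was measured in mouse embryonic fibroblasts (MEFs, connective tissue cells grown from embryos) of C57BL/6J mice, with no treatment, of genotype LATS2-/- (KO) or LATS2+/+ (WT). Both RNAs were hybridised together to 2 Agilent whole mouse genome arrays. KO RNA carried the red dye Cy5 on one array, and the dyes were exchanged on the other. The study asked how the Hippo pathway kinase LATS2 bears on gene repression in such cells. The labels name no separate cultures or embryos, and the study's supplement speaks of independent cell lines without tying them to these arrays, so the arrays were counted as 1 replicate of a dye swap, and their spread measures dye and hybridisation error only.

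14-3-3 proteins form dimers that bind phosphorylated serine or threonine in short motifs of other proteins, and by binding they hold a partner in the cytoplasm, block an enzyme or protect a phosphate. In the Hippo pathway the LATS kinases phosphorylate YAP and TAZ, and 14-3-3 proteins then retain these coactivators outside the nucleus. The YWHA isoforms are made in most tissues, whereas Sfn, which encodes 14-3-3 sigma or stratifin, is best known from epithelia and as a target of p53 that restrains the cell cycle.

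Each array held 43379 non-control spots, of which 390 (0.899%) and 378 (0.871%) carried an outlier flag and were left out. The median signals were 96.8 and 98.5 units in Cy5 and 60.1 and 58.2 units in Cy3, and 0 spots were saturated. The targeted gene went against the label on 3 of its 4 probes, with more signal in the RNA labelled KO (log2 ratios of 0.56, 0.56 and 0.63). These 3 lie close together, between 56644080 and 56645305 on chromosome 14 (build mm8). The remaining probe, at 56676512 to 56676571, was at -0.35. Which part of the gene is deleted is not given in the sources used here, and probes outside that part would not check the label. KO and WT therefore stand below for the RNA labelled so, and every direction rests on the labels alone. Of the fibroblast markers that define the labelled cell type, 11 of 12 had a value. All 11 were well above background in at least 1 genotype. Their summed normalised signal was 146000 and 135000 units in KO against 210000 and 211000 in WT on the 2 arrays, and 7 of the 11 were shifted lower in KO (beyond the spread of 1 probe between arrays), beside 27.6% of all genes. The lowest was Postn at -1.70, the only one called 2-fold, followed by Vim at -0.89, whose probe was not well above background in KO. Fn1 at 0.89 was the only one shifted higher. In bulk RNA, fewer cells of a type and less RNA per cell cannot be told apart.

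Ywhaz stood apart from the other 14-3-3 genes. It was the only member at least 2-fold different between KO and WT on both arrays, and it was lower in KO, whereas Ywhab, Ywhag, Ywhaq and Sfn were modestly higher and Ywhae was close to equal. A log2 ratio of KO over WT is used throughout, so that -1 is a halving and 1 a doubling. A probe was called 2-fold when both arrays gave a ratio of at least 1, or both of at most -1. It was called shifted when the ratio had the same direction on each array and exceeded 0.137 each time, which is the SD between arrays for 1 probe. Of the 15 probes, 14 had a value on both arrays and 13 were well above background in at least 1 genotype. Among these 13, 8 were shifted higher in KO, 2 were shifted lower and 3 were neither. Over all 24186 probes that passed the same filter, 25.3% were shifted higher and 26.3% lower. The 2-fold threshold was reached by 1 member probe, lower, and by 0 higher, against 2.08% lower and 2.48% higher over all probes (503 and 599 probes, of which 54.4% were higher). With median centring in place of loess that share of higher calls was 65.5%.

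When each gene was represented by its brightest probe, 4 of 6 members were shifted higher and 1 lower. Of 15877 genes 26.2% were shifted higher and 27.6% lower. At 2-fold, 2.95% of the genes were higher and 2.61% lower. The median ratio of the 6 members was 0.34, beside -0.004 over all genes. Since the members were picked with these ratios known, nothing is read from their share against that of all genes.

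**Figure D1:**
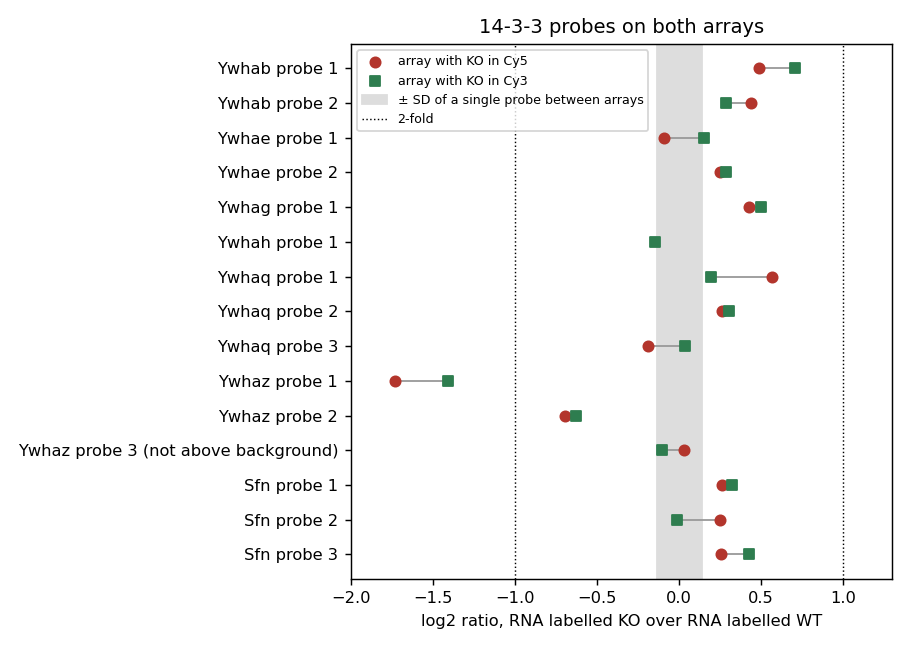
Log2 ratio of KO over WT (x axis) for each of the 15 probes of the 14-3-3 genes (y axis). Circles are the array with KO in Cy5 and squares the array with KO in Cy3, the grey band is the SD between arrays for 1 probe (0.137), and dotted lines mark 2-fold. The brightest Ywhaz probe lies beyond the 2-fold line on both arrays, and the flagged Ywhah spot leaves a single value.

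Ywhaz encodes 14-3-3 zeta, an abundant isoform that binds BAD and many other phosphoproteins. Its brightest probe lies on chromosome 15 at 36715335 to 36715347 (minus strand, build mm8 as in the array files, here and for all probes). The normalised signal was 2080 units in KO and 6900 in WT on the array with KO in Cy5. With the dyes exchanged it was 2180 in KO and 5780 in WT. KO was the dimmer RNA on each array. Here and for the other members the values are hybridisations of the same pair of RNAs. Their separation therefore says nothing of the spread between cultures. Before dye normalisation KO was also the dimmer RNA on each array. The background-subtracted signals were 3300 in KO against 4140 in WT on the first array and 1340 against 9210 on the second. The log2 ratios were -1.73 and -1.41, with a mean of -1.57 ± 0.23 (SD between the arrays), so KO had 33.8% of the WT signal. Of the 15877 genes, 157 (0.989%) had a lower mean ratio, and nothing is read from this rank because the family was selected on these ratios.

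A second Ywhaz probe, at 36719874 to 36720014 on the same strand, was dimmer, with 609 and 593 units in KO and 986 and 918 in WT. It was also lower in KO on each array, but before dye normalisation this held only with KO in Cy3 (335 in KO against 1350 in WT) and not with KO in Cy5 (864 against 589). Its ratios of -0.70 and -0.63 averaged -0.66 ± 0.05 (SD between the arrays), or 63.1% of WT, which is short of 2-fold. Thus both probes gave the same direction but not the same size. The brighter probe was 0.90 lower on the log2 scale (-1.03 and -0.78 on the single arrays), and among 5697 genes with several such probes 4.35% had probes further apart. The remaining probe named Ywhaz, designed on a cDNA clone that the files place on chromosome 1, was not well above background in either RNA and gives no ratio that can be read.

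**Figure D2:**
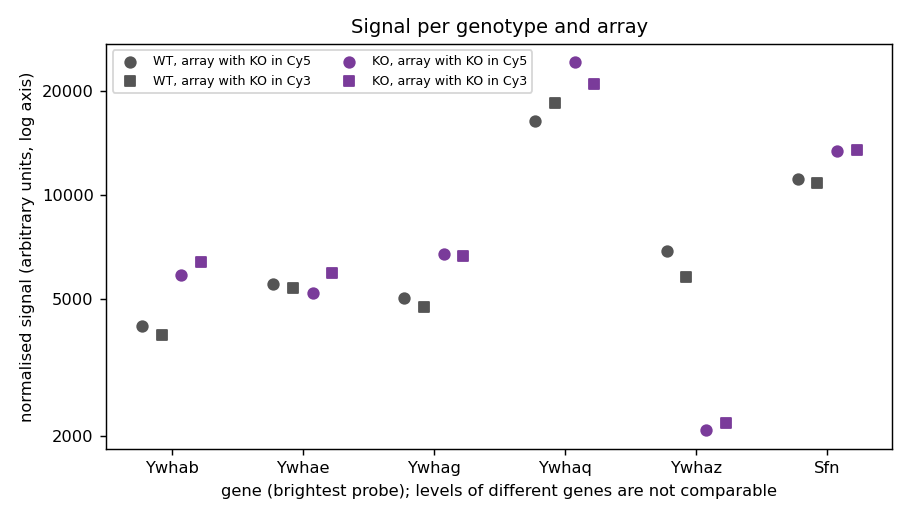
Normalised signal in arbitrary units (log axis) of the brightest probe of each 14-3-3 gene with a value on both arrays. Grey symbols are WT and purple symbols KO, circles the array with KO in Cy5 and squares the array with KO in Cy3. For Ywhaz both KO points (2080 and 2180) lie below both WT points (6900 and 5780), and for Ywhae the KO and WT points overlap.

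Ywhab, which encodes 14-3-3 beta, a binder of CDC25 phosphatases, had the highest ratio of the family. Its brightest probe (chromosome 2, 163708937 to 163708996, plus strand) gave 5850 and 6400 units in KO and 4170 and 3920 in WT. Both KO values were above both WT values. The ratios were 0.49 and 0.71, and their mean of 0.60 ± 0.16 (SD between the arrays) is a 1.51-fold difference. Before dye normalisation the signals were 9440 in KO against 2440 in WT with KO in Cy5, but 4030 against 6260 with KO in Cy3. The direction on a single array therefore depended on the dye normalisation, which was not so for the brightest Ywhaz probe. The brightest probes of the other members shifted higher depended on it too. With KO in Cy3 their signals before it were 4180 in KO against 7540 in WT for Ywhag, 13200 against 30200 for Ywhaq and 8440 against 17500 for Sfn. The second Ywhab probe, at 163705502 to 163705561, had ratios of 0.44 and 0.28 (mean 0.36) and was shifted higher too.

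Ywhag, which encodes 14-3-3 gamma, had 1 probe (chromosome 5, 136193356 to 136193415, minus strand). Its signals were 6760 and 6670 units in KO and 5030 and 4730 in WT. The ratios of 0.43 and 0.50 had a mean of 0.46 ± 0.05 (SD between the arrays), or 1.38-fold. This gene and its position on chromosome 5 come up again below.

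Ywhaq encodes 14-3-3 theta, also called tau. Its brightest probe (chromosome 12, 21637490 to 21637549, minus strand) gave 24200 and 21000 units in KO and 16400 and 18400 in WT. KO was higher on both arrays, but the size differed between them, with ratios of 0.57 and 0.20 (mean 0.38 ± 0.26, SD between the arrays). A second, somewhat dimmer probe, at 21636819 to 21636826, was steadier, with ratios of 0.26 and 0.30 (mean 0.28, 1.22-fold). The dimmest probe, designed on a cDNA clone within the same locus, was dim (97.7 to 112 units) and its ratios of -0.19 and 0.04 had opposite signs. Gene predictions named EG668804 (chromosome 3) and LOC383707 (chromosome 2), which the files describe as similar to 14-3-3 theta, had mean ratios of 0.32 and 0.30 and were shifted higher as Ywhaq was. Whether such copies share transcripts with the Ywhaq probes was not tested.

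Sfn had 2 probes at its locus on chromosome 4 (minus strand) and another that the files place on chromosome 11. The brightest, at 132873160 to 132873219, gave 13400 and 13500 units in KO and 11100 and 10800 in WT. All KO values exceeded all WT values, by little. The ratios of 0.26 and 0.32 had a mean of 0.29 ± 0.04 (SD between the arrays), or 1.22-fold. The probe at 132873361 to 132873420 was near the dim end (104 and 106 units in KO, 87.4 and 79.1 in WT) and had a mean ratio of 0.34, again shifted higher. The probe placed on chromosome 11 was dim too (107 and 110 units in KO, 90.5 and 111 in WT). Its ratios were 0.25 and -0.015, which was no shift. A high signal of Sfn thus rests on the brightest probe alone. Why the probes differ so much in level, and whether the brightest also reads other transcripts, was not tested.

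Since Sfn is a gene of epithelia, the epithelial and keratinocyte markers were read beside it. Of 14 such markers 5 were well above background in at least 1 genotype. The other 9, among them Krt8, Krt18, Cdh1, Epcam and Trp63, were not. The summed signal of the 5 was 919 and 795 units in KO against 501 and 494 in WT. Krt19 (2.12) and Perp (1.93, a p53 target of desmosomes) were called at least 2-fold higher, as were 2.95% of all genes. Dsp was at -1.04, while Krt5 at 0.012 and Krt14 at -0.08 were not shifted. The median ratio of the 5 was 0.012. Perp was not well above background in WT, and Dsp was not in KO. The part of other cells in the Sfn ratio was not tested. Of the listed regulators of Sfn, Trp53 had a ratio of -0.08, Rfwd2 (a ubiquitin ligase of p53) of -0.17 and Trim25 (a ubiquitin ligase of 14-3-3 sigma) of 0.15. Brca1, with -0.47, was the only one of the 4 that was shifted, and it was lower in KO, as were 27.6% of all genes.

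Ywhae, which encodes 14-3-3 epsilon, a gene needed for neuronal migration, was the member closest to equal levels. Its brightest probe (chromosome 11, 75581244 to 75581303, plus strand) gave 5190 and 5960 units in KO and 5530 and 5360 in WT, so the values overlapped. The ratios of -0.09 and 0.15 had opposite signs and a mean of 0.03. The second probe, at 75581864 to 75581923, had ratios of 0.25 and 0.29 (mean 0.27, 1.21-fold) and was shifted higher. The probes of Ywhae thus disagreed on whether the transcript was shifted.

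Ywhah encodes 14-3-3 eta, an isoform abundant in brain, and has 1 probe (chromosome 5, 33344713 to 33344772, plus strand). The spot carried a non-uniformity flag in both channels on the array with KO in Cy5, which leaves 58200 units in KO and 64400 in WT on the other array. The ratio there was -0.15. With the flagged spot kept, the arrays gave 0.48 and -0.15, of opposite sign, so no direction is given for Ywhah.

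By the mean ratios of their brightest probes the members ran from Ywhab over Ywhag, Ywhaq, Sfn and Ywhae to Ywhaz. The single-array values of Ywhab and Ywhag overlapped (0.49 to 0.71 and 0.43 to 0.50). Those of Ywhaq, from 0.20 to 0.57, covered all of Ywhag and Sfn. For these probes the values of Sfn lay above those of Ywhae, and those of Ywhae above those of Ywhaz, without overlap. The second Ywhae probe, at 0.25 and 0.29, did overlap the values of Sfn. Across the 11 probes of members other than Ywhaz, several of which belong to the same gene, the means ran from -0.08 to 0.60. The share of all genes with a lower ratio was 91.7% for Ywhab, 87.6% for Ywhag, 84.2% for Ywhaq, 79.7% for Sfn and 54.9% for Ywhae.

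**Figure D3:**
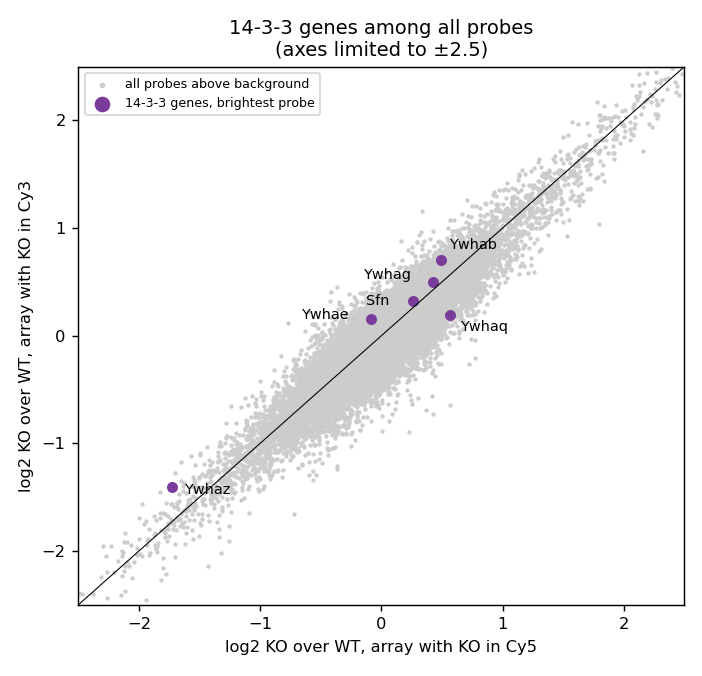
Log2 ratio of KO over WT on the array with KO in Cy5 (x axis) and on the array with KO in Cy3 (y axis) for all probes above background (grey) and for the brightest probe of 6 members of the 14-3-3 family (purple). The line marks equal values, and the axes leave out probes beyond 2.5. Ywhaz lies at -1.73 and -1.41, and the other members lie between -0.09 and 0.71 on each array.

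The start-site regions of the members show one contrast that the rule did not use, the number of CpG dinucleotides. RefSeq promoters (build GRCm38.p6, 250 bases before to 50 after the start) were at hand for 5 members, not for Ywhab or Ywhaz. Those of Ywhaq and Sfn are shown because both genes were shifted higher in KO and their promoters differ most in kind among the shifted genes. CpG dinucleotides are in capitals.
Ywhaq, chr12:21417387-21417686, minus strand: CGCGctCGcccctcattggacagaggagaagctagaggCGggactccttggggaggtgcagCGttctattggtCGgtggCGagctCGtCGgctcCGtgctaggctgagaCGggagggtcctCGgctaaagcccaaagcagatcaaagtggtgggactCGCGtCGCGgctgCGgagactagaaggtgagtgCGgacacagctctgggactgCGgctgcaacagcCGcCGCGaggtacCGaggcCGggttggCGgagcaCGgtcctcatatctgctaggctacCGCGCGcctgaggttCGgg
Sfn, chr4:133602119-133602418, minus strand: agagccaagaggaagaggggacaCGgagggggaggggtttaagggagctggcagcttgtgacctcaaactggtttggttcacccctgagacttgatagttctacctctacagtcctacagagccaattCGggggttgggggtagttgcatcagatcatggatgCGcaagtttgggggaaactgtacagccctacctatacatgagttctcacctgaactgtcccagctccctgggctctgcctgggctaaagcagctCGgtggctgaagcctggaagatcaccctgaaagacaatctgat

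The Ywhaq promoter held 30 CpG dinucleotides and 65.3% G and C. The Sfn promoter held 4 CpG dinucleotides and 54.0% G and C. Over 32851 promoters the median was 7 CpG dinucleotides and 52.7% G and C, so Ywhaq lay far above the typical promoter (88.3% had fewer CpG) and Sfn below it (31.4% had fewer). The remaining YWHA promoters were rich in CpG as well, with 36 in Ywhae, 23 in Ywhag and 38 in Ywhah. Genes of both kinds were thus among those shifted higher. The core of the TEAD binding motif (GGAATG, searched on both strands), through which YAP and TAZ act, was in 0 of the 5 promoters and in 14.7% of all promoters of the same length. No match says only that these letters are not in this window.

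The position of the members in the genome was compared with the ratios around them. Within 1 Mb of the Ywhaz probe there were 14 other genes above background, with a median of -0.26. Of these, 13 had a negative ratio, 8 were shifted lower and 0 higher, and 0 were called 2-fold. The neighbours Ncald, a calcium sensor, and Zfp706 had ratios of -0.69 and -0.63, while Pabpc1, the cytoplasmic poly(A) binding protein, was at -0.19. Ywhaz, at -1.57, was lower than each of the 14 neighbours.

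Medians also differed between chromosomes. Chromosome 15, which carries Ywhaz, had the second lowest median of 20 chromosomes (-0.13, with -0.13 and -0.15 on the single arrays), and 42.4% of its genes were shifted lower and 15.7% higher. Chromosome 12, with Ywhaq, had the highest median (0.18), and chromosome 5, with Ywhag and Ywhah, followed at 0.13. Chromosome 4, with Sfn, had the lowest (-0.16), and the chromosomes of Ywhab and Ywhae were at 0.04 and 0.03. Taken relative to the median of its own chromosome, Ywhaz was at -1.43, Ywhab at 0.56, Sfn at 0.45, Ywhag at 0.33, Ywhaq at 0.20 and Ywhae at 0.01. Every sign was kept. Of the 36 genes within 1 Mb of Sfn, 21 were shifted lower and 3 higher, and on chromosome 4 these shares were 43.1% and 12.7% of the genes. Sfn itself was among the fewer genes shifted higher there. The part of the chromosome in the member ratios was not tested.

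**Figure D4:**
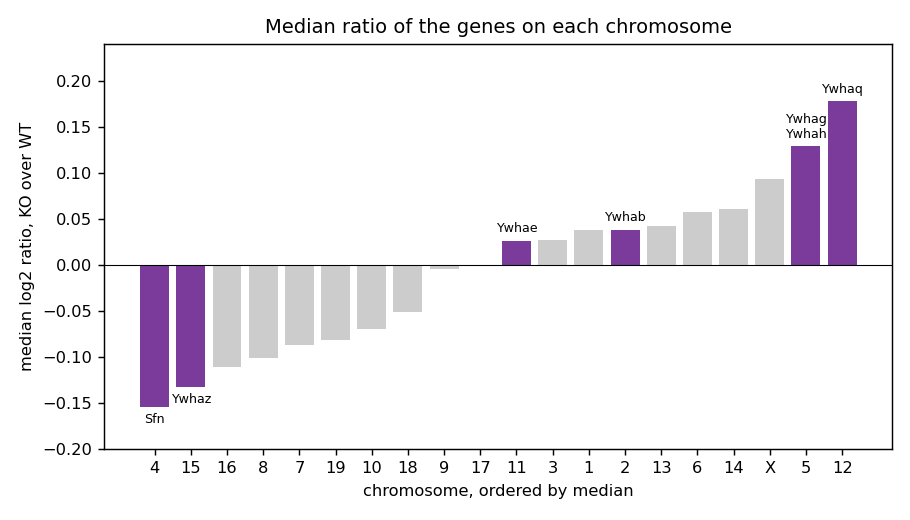
Median log2 ratio of KO over WT (y axis) of the genes above background on each chromosome (x axis, ordered by the median). Purple bars carry a 14-3-3 gene, named at the bar. Chromosomes 4 and 15, with Sfn and Ywhaz, have the lowest medians (-0.16 and -0.13) and chromosome 12, with Ywhaq, the highest (0.18).

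The proteins that 14-3-3 dimers bind were examined next, in a list of 36 known partners. Of these, 32 were above background in at least 1 genotype. Their median ratio was -0.06, with 10 shifted lower, 6 higher, 2 called 2-fold lower and 0 higher. Over all genes the shares were 27.6% lower and 26.2% higher, with 2.61% and 2.95% at 2-fold, so the counts of shifted partners were near those of any genes. Hdac9, a class II histone deacetylase kept in the cytoplasm by 14-3-3, had ratios of -1.73 and -1.57 (mean -1.65). Cdc25b, a phosphatase that starts mitosis, had -1.44 and -1.03 (mean -1.24). The next lowest were Akt1s1, an inhibitory subunit of mTORC1, at -0.95, Cdc25c at -0.86, and Cby1, an antagonist of beta-catenin named Pgea1 on the array, at -0.71. Ywhaz and these partners were lower in the same RNA, and whether their levels are linked was not tested.

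Among the partners higher in KO, Araf, a kinase upstream of MEK, had the largest mean ratio, 1.01. It was just short of the 2-fold call because 1 array gave 0.998. Irs1, an adaptor of the insulin receptor, was at 0.84 (1.07 and 0.61) and Ssh1, a cofilin phosphatase, at 0.65. Of the Hippo effectors, Yap1 had ratios of 0.26 and 0.83 (mean 0.54) and was shifted higher, whereas Wwtr1, the gene of TAZ, was at 0.05 and was not shifted. The arrays measure transcripts, so nothing is shown of phosphorylation or of binding.

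Binding also depends on the kinases that phosphorylate the sites. All 23 listed kinases were above background, with a median of 0.005, 8 shifted higher and 5 lower, which is near the shares over all genes (26.2% and 27.6%). Sgk1, a kinase induced by serum and glucocorticoids and named Sgk on the array, was the only one called 2-fold, with ratios of -1.23 and -1.21. Prkce was at -0.74 and Chek1, the checkpoint kinase that marks CDC25 proteins for 14-3-3, at -0.54, followed by Prkaa1, a catalytic subunit of AMP-activated kinase, at -0.41. The highest were Lats2 (0.56), Camk1 (0.54) and Rps6ka3 (0.42), and Lats1 was at -0.03. Lats2 is the targeted gene, and its probes disagreed, since another of them was shifted lower at -0.35.

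The phosphatases that remove such phosphates had a median ratio of -0.004, and all 8 were above background. Of these, 1 was shifted higher (Ppp3ca, calcineurin, at 0.45) and 1 lower (Ppp2ca, the catalytic subunit of PP2A, at -0.21). Over all genes 26.2% were shifted higher and 27.6% lower, and 8 genes are too few to be set apart from these shares. The lowest of the list was Ppp1ca at -0.24, with Ppp1cc at -0.07, and the next highest were Ppp2r1b at 0.28 and Ppp1cb at 0.15. These 4 were not shifted, since at least 1 array was within the SD given above.

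**Figure D5:**
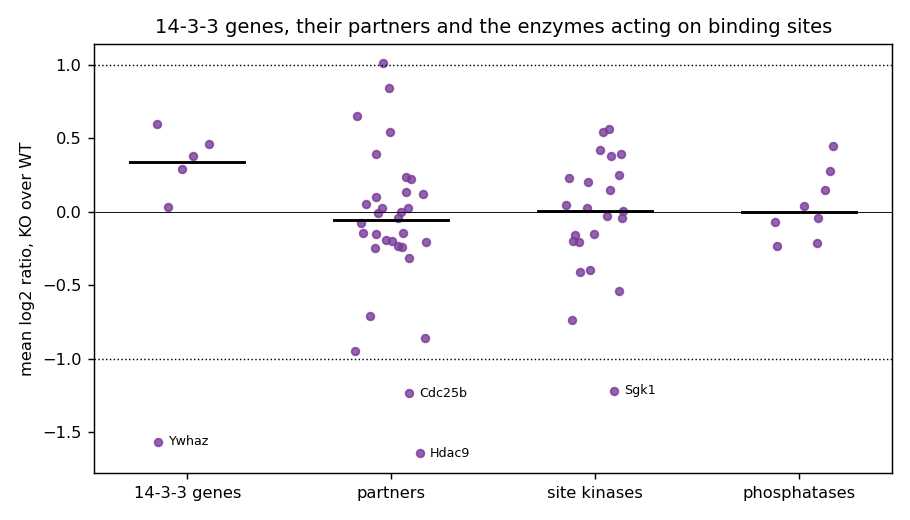
Mean log2 ratio of KO over WT (y axis) of 6 genes of the 14-3-3 family, 32 partners, 23 kinases of their binding sites and 8 phosphatases, each by its brightest probe. Bars are medians (0.34, -0.06, 0.005 and -0.004), dotted lines mark 2-fold, and the genes called 2-fold are named. Ywhaz lies outside the range of the other members.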

How the data were processed

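Total RNA of MEFs was measured on 2 two-colour Agilent arrays with the dyes exchanged. Per the file headers, the mean signal of each spot and its local background median were deposited as intensity, read with Agilent Feature Extraction 10.5.1.1, together with its log10 ratio of Cy5 over Cy3. A further table deposited by the authors gave a log2 ratio for each probe, which matched the log2 ratio of KO over WT from the processed signals. Coordinates of probes are those of the files (mm8).

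Background correction used normexp with an offset of 50 (limma 3.58.1, R 4.3.3), and intensities were normalised by loess within each array. Control and flagged spots (1639 control spots of 45018) were left out, spots of a probe were averaged, the second array was turned, and both arrays were averaged. The offset pulls ratios of dim probes towards 0. For calls, a probe had to be well above background on both arrays in the genotype where it was higher. The brightest probe stood for a gene, and genes were named by the array. Both arrays share 1 slide and 1 scan time. The report gives no test between genotypes, since each has 1 replicate and the number of arrays limits the precision. Tests over the 2 arrays, which compare the RNAs hybridised, were run as alternatives only. The rules for calls were also tested on simulated data. Python 3.11.15 with pandas 2.3.3, numpy 2.4.6 and matplotlib 3.10.9 served for tables and plots.

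The members and lists were chosen with earlier results of these data known. All members are named, and of each list of partners, enzymes and regulators the genes called 2-fold with the 3 highest and 3 lowest, besides Lats1, Lats2, Yap1, Wwtr1 and Trp53. Markers of endothelial cells (0 of 6 above background), haematopoietic cells (2 of 6, 0 called) and neural cells (3 of 10, with Mbp at 2.29, Tubb3 at -0.11 and Map2 at -0.95) were also read. The alternatives were other ratio sources, background corrections, centring, filters, thresholds, probes for a gene, single arrays and tests over the arrays.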

Additional observations from a re-analysis of the deposited data

How the results depend on the processing

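Each ratio already pairs KO and WT on the same array. A test over paired cultures was not possible because there is 1 replicate a genotype. Across 11 alternatives Ywhaz stayed negative in 11 (from -1.73 to -0.76), and Ywhab (0.48 to 0.71), Ywhag (0.33 to 0.53), Ywhaq (0.19 to 0.56) and Sfn (0.25 to 0.45) stayed positive in 11, whereas Ywhae kept its sign in 10 (-0.09 to 0.15). Of all values recomputed, 139 moved by less than the spread between the arrays (for counts, by less than 1.5 times) and 22 by more. Ywhaz was at -0.76 as the mean over all its probes, which include a probe not above background, at -1.73 and -1.41 on the single arrays, and at -1.43 relative to its chromosome, an alternative chosen after seeing the data. The family median was 0.19 with KO in Cy3 alone. The counts of probes 2-fold higher and lower were 1280 and 1220 when the ratio came from Feature Extraction, 1284 and 1224 by the deposited log2 table, 321 and 169 with median centring, and 2007 and 2050 at 1.4-fold. The methods' t-test over the arrays gave 524 and 443 at its unadjusted threshold and 0 and 0 after Benjamini-Hochberg, and limma gave 662 and 598. These tests see hybridisation error only. Shifted probes numbered 1784 and 1833 with median centring. Apart from the thresholds and tests, the cause of these changes was not tested. Slide as a block was not run, since both arrays share 1 slide, and membership by accession added 0 probes. Without separate cultures, none of the ratios has a check against biological spread.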
